A study of Chlamydomonas reinhardtii with 42 samples.

Results

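CYCA1 (locus Cre03.g207900), ALK3 (Cre12.g498650), SMC2 (Cre02.g086650) and FTSZ2 (Cre15.g646150) are nuclear genes of the unicellular green alga Chlamydomonas reinhardtii that belong to mitosis and to the division of the chloroplast. They were taken by these 4 symbols from the authors' rapamycin sheets and matched by locus to the deposited count table, where they are 4 of 17114 genes. Only genes past the authors' thresholds stand in those sheets, so the members were selected on the rapamycin changes, which are given below as a description with no test. The set was also proposed with results of the vitamin part in view. All 4 passed the filter on low values (a mean of at least 1 on a per-million scale over the libraries), as did 14422 genes in all. They passed through their levels at 12 and 48 h, since at 0 h CYCA1 had 7 to 20 reads per library and the other 3 genes lay at or near the floor of 3 reads.

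Chlamydomonas cells grow and then divide by multiple fission, in which rounds of DNA synthesis and mitosis follow each other inside the mother cell and the single chloroplast is split along with the nucleus. Cyclins such as CYCA1 bind and activate cyclin-dependent kinases. Aurora kinases, the family that the symbol ALK3 (Aurora-like kinase) denotes, act in chromosome segregation and cytokinesis in many eukaryotes. SMC2 pairs with SMC4 in condensin, the complex that compacts chromosomes for mitosis. FTSZ2 is a plastid relative of the bacterial cell division protein FtsZ, and in plants and algae it forms a ring with FTSZ1 inside the chloroplast at the site of division. In Chlamydomonas cultures synchronized by light and dark, transcripts of this kind are known to accumulate around the time of division.

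Total RNA was made into Illumina TruSeq libraries and sequenced from the strains A31 and DHC16 (spelled DCH16 in the growth notes) at 0, 12 and 48 h after cobalamin (vitamin B12) and thiamine were given to deplete ClpP1, a catalytic subunit of the chloroplast Clp protease. Per the labels both strains received the vitamins, and cells grew in Tris-acetate medium in light, dim light or darkness, with no statement of which library had which. From published work on this system, and not from the labels, DCH16 carries the chloroplast clpP1 gene made repressible by the vitamins, through a nuclear factor that they switch off, and A31 is the strain in which the vitamins act without depleting ClpP1. A further experiment gave rapamycin, an inhibitor of the TOR kinase, to A31 for 2 and 8 h. The rapamycin part also holds 3 records each of A31 and of DHC16 at 0, 12 and 48 h. They carry the same library numbers as the vitamin records. The count table deposited with that part holds the same values, so these records were not used as further samples. No culture without vitamins at 12 or 48 h was analysed here, so the vitamins, the time in culture and the state of the culture cannot be told apart within a strain. The labels do not say whether the libraries of a group came from separate cultures, so the p-values rest on a spread between libraries that may be technical. They do not say whether a strain is 1 clone.

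The count table holds 17 libraries, with 3 per group, but 2 (numbers 19 and 22) for A31 at 48 h. Values are normalized counts, in which each library’s reads were divided by a factor of its own. Depth ran from 7458423 to 13699705 reads, and 1 read was worth 0.703 to 2.04 normalized counts, largest in DHC16 at 0 h. Both A31 libraries at 48 h stand apart from each other. Over all tested genes, library 19 was closer in rank to the A31 libraries of 0 h than to those of 12 h (mean Spearman correlations of 0.943 and 0.813), and library 22 was closer to those of 12 h (0.775 and 0.919). METE, a methionine synthase gene that vitamin B12 represses, lay below its 0 h range in all 12 h libraries, with means of 814 at 0 h and 150 normalized counts at 12 h in A31 and of 841 and 264 in DHC16. At 48 h it stood at 353 and 1001 normalized counts in the A31 libraries, given from lowest to highest and not by library number. The higher of these lay within the A31 0 h range of 579 to 1050. In DHC16 METE stood at 323 ± 28.8 at 48 h (SD, n = 3).

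CYCA1 went from a few reads to its highest level between 0 and 12 h in both strains, and at 48 h it was lower again, much more so in DHC16. In A31 it had 10.1, 15.3 and 7.73 normalized counts at 0 h, 1760, 1516 and 1805 at 12 h, and 176 in library 19 and 548 in library 22 at 48 h. In DHC16 it had 18.4, 13.5 and 18.3 at 0 h, 1396, 1060 and 1083 at 12 h, and 73.1, 55.4 and 79.8 at 48 h. No library of one time overlapped with another time of the same strain, and all DHC16 libraries of 12 and 48 h lay below all A31 libraries of the same time. From the summed reads, the ratio of 12 h to 0 h was 153 in A31 (exact 95% counting interval 112 to 214, from 40 reads at 0 h) and 69.4 in DHC16 (48.6 to 103, from 30 reads). These intervals, and the floors below, cover counting error only. On the log2(normalized count + 1) scale the 12 h change was 7.18 ± 0.32 in A31 (SE, limma, Benjamini-Hochberg adjusted p = 3.7e-11) and 6.06 ± 0.32 in DHC16 (adjusted p = 5.4e-10).

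ALK3 had the largest change from 0 h of the 4 genes, at 12 and at 48 h in both strains. At 0 h only 4 reads were counted over the 3 A31 libraries and 8 over the 3 DHC16 libraries, that is 0, 1.53 and 1.41 normalized counts in A31 and 2.04, 3.86 and 6.53 in DHC16. A floor of 3 reads corresponds to 2.11 to 3.36 normalized counts in the A31 0 h libraries and to 3.92 to 6.13 in those of DHC16, so 5 of these 6 values lay under the floor of their library. At 12 h ALK3 stood at 3099, 2504 and 2801 normalized counts in A31 and at 2872, 1981 and 1480 in DHC16, where the strains overlapped. At 48 h it stood at 489 and 827 in libraries 19 and 22 of A31 and at 94.5, 85.1 and 106 in DHC16, and here the strains did not overlap. The ratio of 12 h to 0 h was 2533 in A31, with a counting interval of 989 to 9298, and 460 in DHC16, with 234 to 1067. Its log2 change at 12 h, 10.58 ± 0.36 in A31 and 8.73 ± 0.36 in DHC16 (limma, adjusted p = 1.3e-12 and 2.6e-11), was the 6th and the 4th in size among all tested genes. The size depends on the 1 added before the log. With 0.5 or 5 added the change was 11.13 or 8.88 in A31 and 8.90 or 7.83 in DHC16.

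SMC2 followed the same course at a lower count. It had 0, 0 and 2.11 normalized counts in A31 at 0 h (3 reads in all) and 4.08, 0 and 2.61 in DHC16 (4 reads), none above the floor of 3 reads. At 12 h the values were 552, 505 and 435 in A31 and 368, 276 and 275 in DHC16, with every DHC16 library below every A31 library. At 48 h they were 65.1 in library 19 and 272 in library 22 of A31, and 8.03, 9.37 and 15.0 in DHC16. The A31 libraries thus lay far apart at 48 h, while the DHC16 libraries had come down toward the floor, which was 2.34 to 2.99 normalized counts at the later times. The ratio of 12 h to 0 h was 605 in A31 (counting interval 207 to 2937) and 135 in DHC16 (52.6 to 497). The log2 changes were 8.41 ± 0.58 and 6.85 ± 0.58 (limma, adjusted p = 7.8e-09 and 1.1e-07).

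FTSZ2, the plastid division gene of the set, had 0, 3.81 and 0 normalized counts in A31 at 0 h (5 reads) and 8.17, 3.86 and 3.92 in DHC16 (9 reads). At 12 h it stood at 648, 484 and 634 in A31 and at 450, 297 and 334 in DHC16, and the strains did not overlap. At 48 h A31 library 19 held 53.3 and library 22 held 312, against 35.7, 32.0 and 21.0 in DHC16. All DHC16 libraries lay below both A31 libraries, and library 19 was closer to them than to library 22. The ratio of 12 h to 0 h was 424 in A31 (counting interval 181 to 1306) and 70.8 in DHC16 (37.1 to 155). The log2 changes were 8.44 ± 0.58 and 5.88 ± 0.58 (limma, adjusted p = 7.8e-09 and 5.8e-07).

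**Figure D1:**
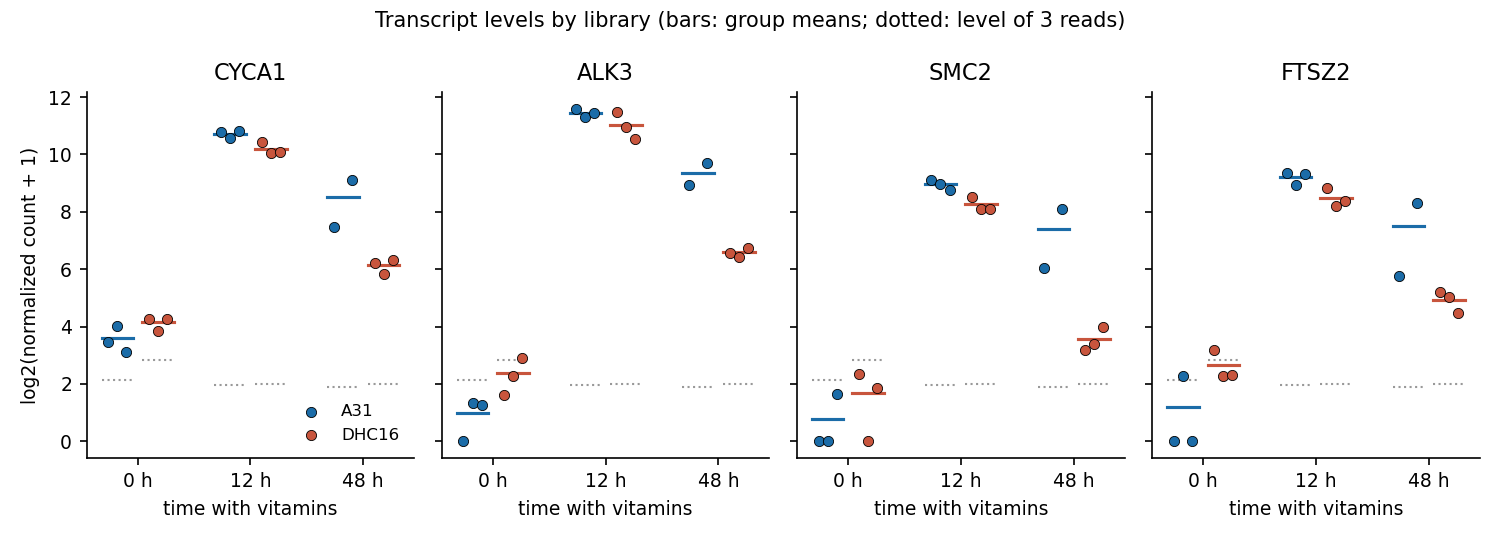
Normalized counts of CYCA1, ALK3, SMC2 and FTSZ2 in each of the 17 libraries (vertical axis, log2 of normalized count + 1) by strain and time after the vitamins, with bars for group means and a dotted line for the highest floor of 3 reads in the group. All 4 genes lie lowest at 0 h, reach their highest level at 12 h in both strains, and are lower in DHC16 than in A31 at 48 h.

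All 4 genes rose in A31 at 12 h, where 31.5% of the tested genes were called higher, and all 4 rose in DHC16, where 30.1% were. The median change over all tested genes was 0.02 in A31 and 0.04 in DHC16. The 12 h libraries lay above the 0 h libraries without overlap for all 4 genes in both strains, as they did for 36.5% of tested genes in A31 and 35.3% in DHC16. In bulk RNA, more cells at the stage that holds a transcript and more transcript in each cell cannot be told apart. By rank of the size of the log2 change among the 14422 genes, SMC2, FTSZ2 and CYCA1 stood at 33, 29 and 78 in A31 and at 61, 130 and 117 in DHC16. Such ranks rest on 0 h levels of a few reads and on the added 1. The calls of a 12 h rise held in every alternative setting and every leave-out of 1 library that was run.

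The rise to 12 h was not shown to differ between the strains. The DHC16 change minus the A31 change was -1.12 ± 0.45 for CYCA1, -1.85 ± 0.51 for ALK3, -1.56 ± 0.82 for SMC2 and -2.55 ± 0.82 for FTSZ2 (limma, adjusted p = 0.31, 0.15, 0.45 and 0.22). None of the 4 was called, with 0.250% of all tested genes called in either direction. At an unadjusted p under 0.05 the count was 3 of 4 (limma, 0.023 for CYCA1, 0.0021 for ALK3 and 0.0065 for FTSZ2), beside 12.6% of tested genes. The plan was to give adjusted p-values only, because the members were chosen with earlier results of these data known. The unadjusted count is thus a description and no evidence of a strain difference. EdgeR and DESeq2 on recovered reads also called 0 of 4, whereas quantile scaling called ALK3 (-1.94, adjusted p = 0.044) and the fit with only the compared groups called FTSZ2 (-2.55, adjusted p = 0.049). These differences are measured from 0 h levels of a few reads, and with a pseudocount of 5 the ALK3, SMC2 and FTSZ2 values became -1.05, -1.02 and -1.46. Compared at 12 h alone, a comparison added after the values were seen, the strains differed by -0.53 ± 0.32, -0.46 ± 0.36, -0.70 ± 0.58 and -0.72 ± 0.58 for CYCA1, ALK3, SMC2 and FTSZ2 (limma, adjusted p = 0.39, 0.53, 0.54 and 0.53). No member was called here, beside 1.75% of tested genes called lower in DHC16, although 3 of 4 members (not ALK3) did not overlap between the strains, as was so for 18.8% of tested genes. With only the 12 h groups in the fit, the same 3 were called (limma, adjusted p = 0.017, 0.0081 and 0.013). The call thus depends on which groups are in the fit. Leaving out DHC16 library 10 or 16 moved the ALK3 value to -0.70 or -0.23, uncalled in both (adjusted p = 0.40 and 0.86).

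By 48 h all 4 transcripts had come down from 12 h in both strains. From the summed reads of a group, the DHC16 level at 48 h was 5.83% of that at 12 h for CYCA1, 4.54% for ALK3, 3.47% for SMC2 and 8.35% for FTSZ2. The log2 changes from 12 to 48 h were -4.07 ± 0.32, -4.41 ± 0.36, -4.74 ± 0.58 and -3.58 ± 0.58 (limma, adjusted p = 3.7e-08, 6.2e-08, 4.9e-06 and 8.8e-05), and all 4 fell, beside 24.6% of tested genes called lower. None of the 4 overlapped between 48 and 12 h, as was so for 34.3% of tested genes in DHC16 and, in A31, for 24.6%. From the summed reads of A31 the shares were 20.7%, 23.1%, 32.2% and 29.6%, from a pair of unlike libraries. By library, CYCA1 had 10.4% of its A31 12 h mean in library 19 and 32.4% in library 22, ALK3 had 17.5% and 29.5%, SMC2 had 13.1% and 54.7%, and FTSZ2 had 9.05% and 53.0%. The A31 falls were -2.44 ± 0.36, -2.13 ± 0.40, -1.88 ± 0.65 and -2.16 ± 0.65 (limma, adjusted p = 0.00038, 0.0017, 0.040 and 0.022), all 4 called beside 14.7% of tested genes called lower.

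Some of these A31 calls were lost when 1 library was left out. The fall was smaller without library 19 of 48 h, and of nearly the same size without a library of 12 h. Without library 19 CYCA1 still fell, by 1.62 (adjusted p = 0.0018), while SMC2 and FTSZ2 had -0.86 and -0.90 (adjusted p = 0.43 and 0.36). Without library 22 the falls were larger, at -2.91 for SMC2 and -3.43 for FTSZ2. The SMC2 call was also lost without A31 library 10, 13 or 16 of 12 h (-1.81, -1.87 and -1.98, adjusted p = 0.089, 0.086 and 0.072), and the FTSZ2 call without library 10 or 16 (-2.09 and -2.11, adjusted p = 0.054 and 0.059). With only the A31 groups of 12 and 48 h in the fit, none of the 4 was called (adjusted p = 0.072 for CYCA1 and ALK3 and 0.12 for SMC2 and FTSZ2), nor was any other gene.

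**Figure D2:**
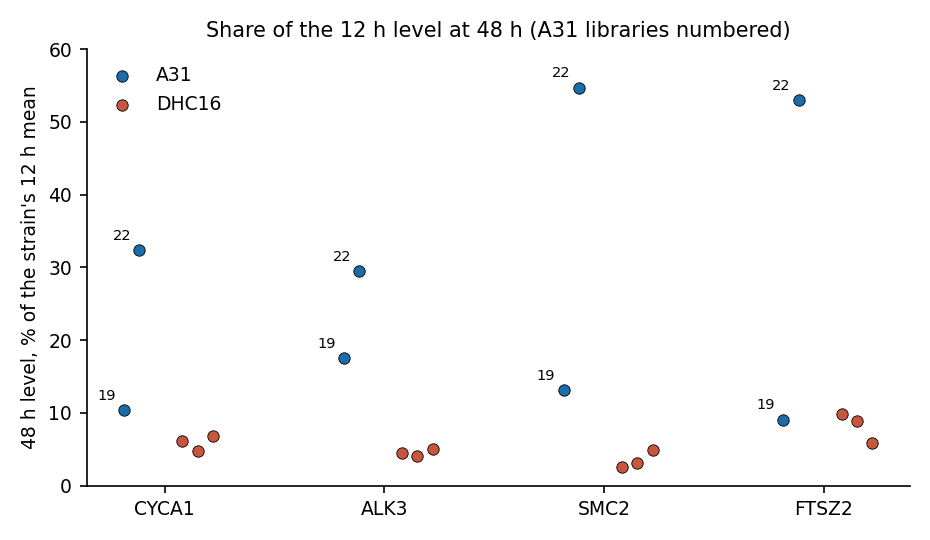
Level at 48 h as a percentage of the same strain's 12 h mean for CYCA1, ALK3, SMC2 and FTSZ2, with 1 point per library (2 of A31, numbered 19 and 22, and 3 of DHC16). A31 library 22 lies highest for every gene, and for FTSZ2 library 19 (9.05%) lies among the DHC16 libraries (5.82 to 9.90%).

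Both strains still held more of each transcript at 48 h than at 0 h. In A31 the 48 h changes from 0 h were 4.75 ± 0.36 for CYCA1, 8.45 ± 0.40 for ALK3, 6.52 ± 0.65 for SMC2 and 6.27 ± 0.65 for FTSZ2 (limma, adjusted p = 1.1e-07, 2.8e-10, 3e-06 and 4.6e-06). In DHC16 they were 1.99 ± 0.32, 4.32 ± 0.36, 2.12 ± 0.58 and 2.31 ± 0.58 (limma, adjusted p = 6.9e-05, 7.7e-08, 0.0055 and 0.0031). All 4 rose in A31, beside 14.4% of tested genes, and all 4 rose in DHC16, beside 29.7%. For all 4 the 48 h libraries lay above those of 0 h, as they did for 23.3% of tested genes in A31 and 32.9% in DHC16. As ratios of summed reads, DHC16 had 4.05 times its 0 h level for CYCA1 (counting interval 2.76 to 6.13), 20.9 for ALK3 (10.5 to 48.8), 4.69 for SMC2 (1.68 to 18.1) and 5.91 for FTSZ2 (2.99 to 13.3). ALK3 thus stayed farthest above its starting level in DHC16. The SMC2 rise in DHC16, on 4 reads at 0 h, was not called with edgeR (2.21, adjusted p = 0.056) or with quantile scaling (1.16, adjusted p = 0.069), and with a pseudocount of 5 it measured 1.14.

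The 48 h changes differed between the strains for all 4 genes. The DHC16 change from 0 h minus that of A31 was -2.76 ± 0.48 for CYCA1, -4.13 ± 0.54 for ALK3, -4.41 ± 0.87 for SMC2 and -3.96 ± 0.87 for FTSZ2 (limma interaction, adjusted p = 0.00066, 6.2e-05, 0.0018 and 0.0042). All 4 were called lower in DHC16, beside 8.66% of tested genes, with a median over all genes of 0.05. The 4 calls held in each leave-out of 1 library, where CYCA1 ranged from -3.57 to -1.94, ALK3 from -4.51 to -3.70, SMC2 from -5.43 to -3.38 and FTSZ2 from -5.23 to -2.70. With edgeR on recovered reads SMC2 was not called (-5.26, adjusted p = 0.052). With per-million scaling, which moved the median of all genes to 1.28, CYCA1 measured -1.55 and all 4 remained called lower. The comparison of the strains at 48 h alone, which does not use the sparse 0 h reads and was added after the values were seen, gave -2.16 ± 0.36, -2.73 ± 0.40, -3.55 ± 0.65 and -2.13 ± 0.65 (limma, adjusted p = 0.0002, 7.1e-05, 0.0005 and 0.019), all 4 called beside 15.5% of tested genes called lower. At 48 h every A31 library lay above every DHC16 library for all 4 genes, as was so for 22.4% of tested genes. Without A31 library 22 the CYCA1 value was -1.35 (adjusted p = 0.0021) and the FTSZ2 value -0.86 (adjusted p = 0.31), without library 19 the FTSZ2 value was -3.39 (adjusted p = 0.00045), and without DHC16 library 25 it was -1.91 (adjusted p = 0.065). The FTSZ2 call at 48 h was also lost with per-million scaling (-1.59, adjusted p = 0.056) and with only the 48 h groups in the fit (adjusted p = 0.099).

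The fall from 12 to 48 h was larger in DHC16 for CYCA1 by -1.63 ± 0.48, for ALK3 by -2.28 ± 0.54 and for SMC2 by -2.85 ± 0.87 (limma interaction, adjusted p = 0.024, 0.0071 and 0.029). For FTSZ2 the difference was -1.41 ± 0.87 (adjusted p = 0.27), so 3 of 4 were called, beside 8.69% of tested genes called lower. All 4 were called with edgeR and DESeq2 on recovered reads (FTSZ2 -1.90 and -1.91, adjusted p = 0.045 and 0.033), and SMC2 was not called with a pseudocount of 0.5 (-2.91, adjusted p = 0.076). ALK3 was called in every leave-out of 1 library. Without A31 library 22 CYCA1 had -0.82 (adjusted p = 0.10), SMC2 -1.83 (0.11) and FTSZ2 -0.15 (0.90). Without library 19 CYCA1 had -2.45 (adjusted p = 0.00011), and FTSZ2 had -2.67 and was called (0.018). CYCA1 also lost its call without A31 library 13 (-1.56, adjusted p = 0.050) and without DHC16 library 10 (-1.51, 0.060) or 22 (-1.48, 0.059). SMC2 lost it without A31 library 16 (-2.76, adjusted p = 0.064) and without DHC16 library 10, 16, 19 or 22 (-2.71, -2.92, -2.68 and -2.78, adjusted p = 0.066, 0.050, 0.061 and 0.058). With per-million scaling, where the median of all genes was 0.86, none of the 4 was called (-0.80 for CYCA1, -1.44 for ALK3, -2.04 for SMC2 and -0.58 for FTSZ2).

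Other genes of cell division, from 4 lists of symbols, moved with the members at 12 h. The files name only genes that the authors' rapamycin sheets list, so each list member had already passed the authors' thresholds for rapamycin, and genes without a symbol are missing. Of cyclins, cell cycle kinases and their regulators, 6 genes with CYCA1 among them were found, and all 6 rose at 12 h in both strains (median log2 6.22 in A31 and 5.46 in DHC16). Over all tested genes 31.5% rose in A31 and 30.1% in DHC16 at that time, with medians of 0.02 and 0.04. CYCB1, a B-type cyclin, measured 61.1 ± 15.2 at 0 h and 4051 ± 553 at 12 h in A31 (normalized counts, SD, n = 3), and 54.5 ± 14.9 and 2528 ± 367 in DHC16. CDKB1, a plant-type mitotic kinase, measured 1.12 ± 1.94 and 1229 ± 131 in A31, and 1.76 ± 0.397 and 724 ± 177 in DHC16. Of 14 genes of mitosis and chromosome structure, ALK3 and SMC2 among them, 13 rose in each strain (medians 3.49 and 3.14). The exception was CNK9 (log2 -0.84 in A31 and -0.02 in DHC16, limma, adjusted p = 0.055 and 0.97), a kinase of the NimA-related family. Of 29 DNA replication genes, none of them a member, 29 rose in A31 and 28 in DHC16 (medians 3.06 and 2.55). Without the members, 5 of 5 genes of the cyclin list rose in each strain (medians 6.05 in A31 and 5.38 in DHC16). So did 11 of 12 of the mitosis list (medians 3.39 and 2.70).

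SMC4, the other SMC subunit of condensin, had 0.254 ± 0.44, 348 ± 21.6 and 81.3 ± 56.3 normalized counts at 0, 12 and 48 h in A31, and 1.31 ± 2.26, 200 ± 11.6 and 9.69 ± 5.53 in DHC16 (SD, n = 3, or 2 for A31 at 48 h). ALK2, a second Aurora-like kinase gene, had 10.3 ± 4.89, 604 ± 76.9 and 186 ± 136 in A31 and 7.93 ± 3.48, 362 ± 69.3 and 63.6 ± 21.5 in DHC16. The strains differed in the 48 h change of SMC4 (-3.36 ± 0.81, limma, adjusted p = 0.008) as for SMC2, whereas ALK2 was not called (-1.02 ± 0.61, adjusted p = 0.28). FTSZ1, the partner of FTSZ2 in the plastid ring, had 7.42 ± 3.52, 923 ± 109 and 201 ± 204 in A31 and 3.24 ± 2.95, 570 ± 70.4 and 46.9 ± 5.29 in DHC16. Its difference in the 48 h change was -0.27 ± 0.90 (adjusted p = 0.88), and whether it differs from FTSZ2 was not tested. FTSZ1 stood near the floor at 0 h in DHC16, as FTSZ2 did in A31, so both differences are measured from a few reads. Reads shared between such paralogs could have been dropped or assigned to either gene, because no source used here gives the counting settings.

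All 8 genes of plastid and organelle division that were found, FTSZ2 among them, rose at 12 h in both strains (medians 7.20 and 6.47, beside 31.5% and 30.1% of tested genes called higher). Without FTSZ2, 7 of 7 rose in each strain (medians 6.86 and 7.06). All 8 were also called higher at 48 h (medians 5.03 and 2.87, beside 14.4% and 29.7%), but 6 of 8 in A31 with per-million scaling and 7 of 8 in DHC16 with quantile scaling. MIND1, whose product places the division site, measured 1.84 ± 0.63 at 0 h and 1521 ± 239 at 12 h in A31 (normalized counts), and 1.95 ± 1.96 and 991 ± 125 in DHC16. MINE2, of the same positioning system, had a lower 48 h change in DHC16 (-3.06 ± 0.80, limma, adjusted p = 0.013), as did DRP5B, a dynamin-related protein of plastid division (-1.76 ± 0.37, adjusted p = 0.0027). For MIND1 and MINE1 the differences were -2.04 ± 0.79 and -1.85 ± 0.91 (adjusted p = 0.086 and 0.18). DRP1, another dynamin-related gene, rose least of the 8 (log2 0.94 in A31 and 1.3 in DHC16), with 608 ± 82 and 1160 ± 50 normalized counts at 0 and 12 h in A31.

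In the strain difference of the 48 h change, 2 of 6 genes of the cyclin list were lower in DHC16, 5 of 14 of the mitosis list, 3 of 8 of the division list and 0 of 29 of the replication list, beside 8.66% of all tested genes. The medians were -1.81, -1.09, -1.80 and -0.31, beside 0.05 for all tested genes. These counts and medians include the 4 members. Without them 1 of 5 cyclin, 3 of 12 mitosis and 2 of 7 division genes were lower, with medians of -1.17, -0.71 and -1.76. With quantile scaling 4, 5, 4 and 3 genes of the full lists were lower (8.20% of all tested genes). With per-million scaling 2, 5, 2 and 0 were (2.97%), while 2 cyclin, 2 mitosis and 2 division genes were higher (63.5%). The genes called lower were CYCA1 and CDKB1 (-3.77 ± 0.76, limma, adjusted p = 0.0022), then ALK3, SMC2, SMC4, TOP2, a topoisomerase that untangles sister chromosomes (-3.80 ± 0.91, adjusted p = 0.0075), and CDC20, an activator of the anaphase-promoting complex (-3.10 ± 0.73, adjusted p = 0.0066), and FTSZ2, MINE2 and DRP5B. With per-million scaling the medians of the 4 lists, in the order above, were -0.63, 0.07, -0.69 and 0.93 beside 1.28 for all genes. The signs of the mitosis and replication medians thus turned, while each median stayed below that of all genes. In the replication list 2 genes had a higher change in DHC16, beside 9.26% of tested genes, namely MCM5, a subunit of the replicative helicase (1.85 ± 0.27, adjusted p = 0.00014), and RPA30, which belongs to the complex that binds unwound DNA (1.09 ± 0.32, adjusted p = 0.025). With per-million scaling 12 of 29 replication genes did, beside 63.5% of all tested genes. Between the strains at 48 h alone, 10 of 29 replication genes were lower in DHC16 (15.5% of tested genes) and 1 was higher (16.0%). Without the members, 4 of 5 cyclin, 5 of 12 mitosis and 4 of 7 division genes were lower there. With per-million scaling 2 replication genes were lower at 48 h and 2 higher, while 5457 of 14422 tested genes were higher.

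**Figure D3:**
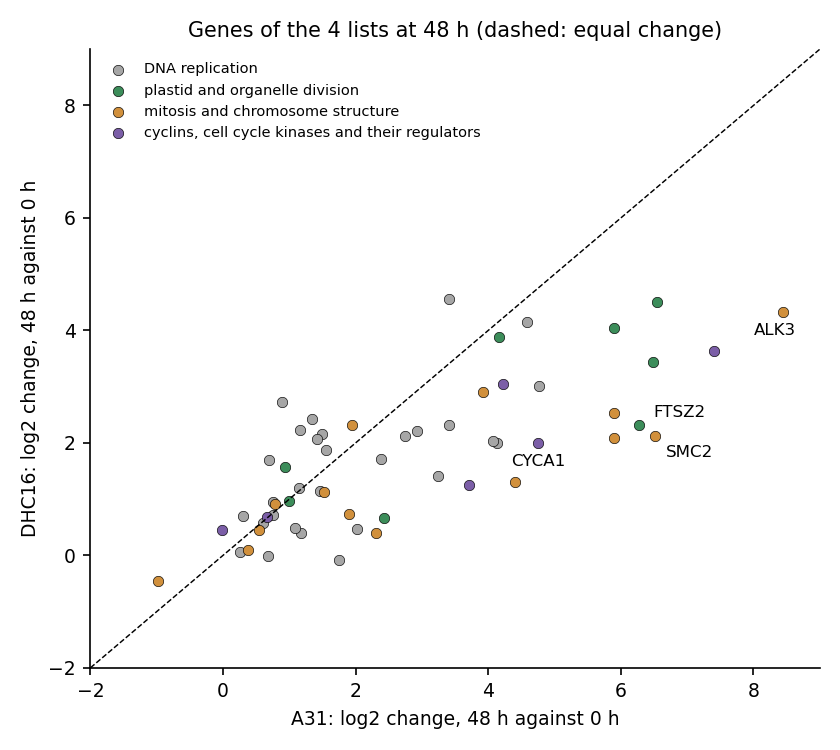
Log2 change of each gene of the 4 lists at 48 h against 0 h in A31 (horizontal axis) and DHC16 (vertical axis), coloured by list, with the dashed line where both strains change equally. CYCA1, ALK3, SMC2 and FTSZ2 lie well under the line, with ALK3 at 8.45 in A31 and 4.32 in DHC16.

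Across the 17 libraries the log2 levels of the members had Pearson correlations with each other of 0.959 (SMC2 with FTSZ2) to 0.980 (CYCA1 with SMC2 and with FTSZ2). The libraries share strains and times, so these values describe a common course over 6 groups and are no test. Among the 765 other genes with a symbol, those most like CYCA1 were PHC4, a pherophorin of the cell wall (r = 0.991), GOX18, a glyoxal or galactose oxidase (0.990), and SRR1, a scavenger receptor domain protein (0.988). Most like ALK3 were GAS28, a hydroxyproline-rich glycoprotein (0.997), and the pherophorins PHC22 and PHC4 (0.995 each). For SMC2 they were GOX18 (0.981), CYCA1 (0.980) and PHC4 (0.978), and for FTSZ2 the pherophorin PHC19 (0.983), CYCA1 (0.980) and GAS28 (0.979). PHC4 had the same course as CYCA1, with 5.19, 3093 and 775 normalized counts at 0, 12 and 48 h in A31 and 9.21, 2403 and 110 in DHC16 (group means).

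The genes with counts next to CYCA1, ALK3 and SMC2 in the RefSeq annotation of the v5.5 assembly did not share the size of the 12 h rise. None of these neighbours overlapped its member, and FTSZ2 had no match in that annotation. Cre03.g207918 beside CYCA1 had 1.19 in A31 (limma, adjusted p = 0.0023) and 0.41 in DHC16 (0.24). The gene on the other side of CYCA1, Cre03.g207901, is not in the count table. Beside ALK3, CPLD13 had 0.48 and 0.15 (adjusted p = 0.21 and 0.71) and Cre12.g498600 had -1.01 and -1.21 (0.00035 and 6.9e-05). Beside SMC2, Cre02.g086600 had -0.39 and -0.10 (adjusted p = 0.034 and 0.57) and Cre02.g086700 had 0.79 and 0.90 (0.0038 and 0.0016).

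With rapamycin, all 4 genes were listed lower in A31 in the authors' deposited table, which gives a mean level per time on a scale that is not stated, with no libraries. Its changes are against 0 h, and no record is of A31 at 2 or 8 h without rapamycin. The drug, the time in culture and the state of the culture thus cannot be told apart. CYCA1 went from 80.5 at 0 h to 26 at 2 h and 14.7 at 8 h, which is 32.3% and 18.3% of the start (the authors' moderated log2 changes in the deposited table are -1.46 and -2.46, adjusted p = 9.4e-05 and 5.2e-11). ALK3 is listed in the authors' deposited table at 8 h only, with 1.91 against 15.5 at 0 h, or 12.3% (log2 -2.74, adjusted p = 5.1e-10). SMC2 went from 25.5 to 6.57 at 2 h (25.8%, log2 -1.71, adjusted p = 2.2e-07) with 9.98 at 8 h (39.1%, log2 -1.47, adjusted p = 7.7e-05), per the authors' deposited table. FTSZ2 had the deepest fall at 2 h, from 47.3 to 3.05 (6.45%, log2 -3.28, adjusted p = 6.1e-12), and was at 18.7 at 8 h (39.5%, log2 -1.44, adjusted p = 0.0013) in the authors' deposited table.

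CYCA1 was thus lower at 8 h than at 2 h, whereas SMC2 and FTSZ2 were higher at 8 h than at 2 h, without a test, since no error of the levels is given. FTSZ1 had values close to FTSZ2 in the authors' deposited table, from 44.1 to 2.31 at 2 h (5.24%) and 18.3 at 8 h (41.5%). Every gene in the sheets has a moderated log2 change of at least 1.00 in size and an adjusted p of at most 0.0099 at 2 h or 0.0097 at 8 h, so a listed gene had to differ. The authors' deposited table lists 1939 genes at 2 h, 54.1% of them lower, and 1702 at 8 h, 59.6% of them lower. Of the lists above, 5 of 6 cyclin and kinase genes, 12 of 14 mitosis genes, 7 of 8 division genes and 29 of 29 replication genes are listed lower at 2 h. These totals hold only genes listed at 2 or 8 h. A gene under the authors' thresholds at both times could not enter them, so the shares are no test. At 8 h the authors' deposited table lists 4, 7, 7 and 2 genes of these lists, of which 4, 7, 6 and 2 are lower. At either time, a list gene that is absent from the sheet has no value there. DRP1 of the division list is listed higher in the authors' deposited table, at 240% and 263% of its 0 h level.

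**Figure D4:**
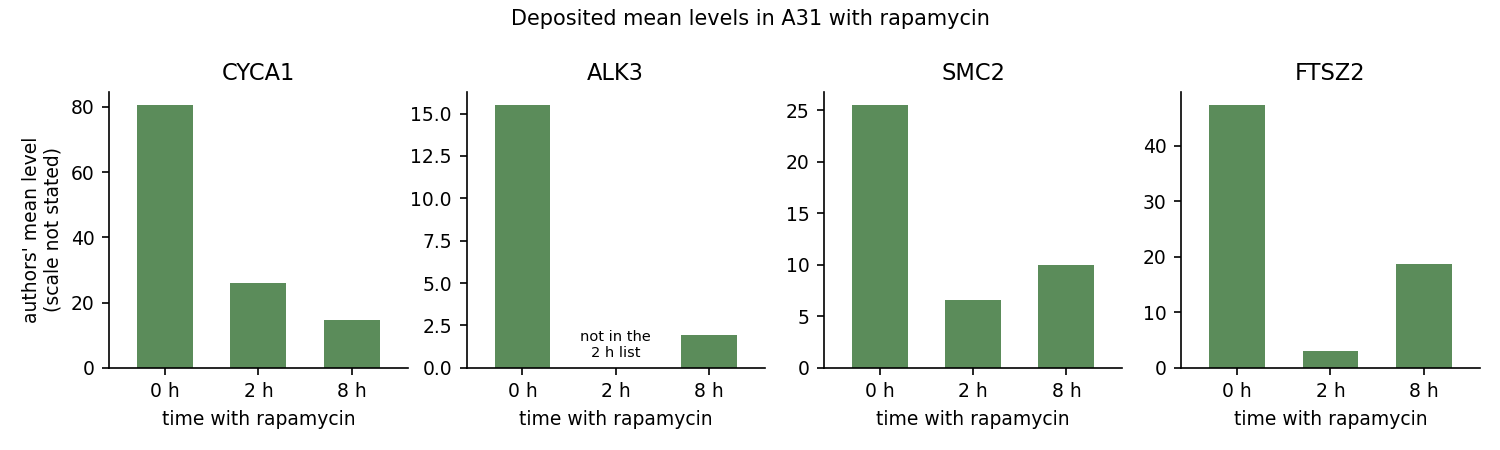
The authors' deposited mean levels of CYCA1, ALK3, SMC2 and FTSZ2 in A31 (vertical axes, scale not stated) at 0, 2 and 8 h of rapamycin (horizontal axis), without error bars because no errors are given. CYCA1 falls from 80.5 to 26 and 14.7, whereas SMC2 and FTSZ2 have their lowest level at 2 h (6.57 and 3.05), and ALK3 has no 2 h value in the sheets.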

How the data were processed

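The members and gene lists were chosen with earlier results of these data known. The authors deposited normalized counts (a signal: whole reads divided by 1 factor per library, with 100% of values whole within 0.01 of a read). The table deposited for rapamycin holds the same values and was used a single time. For rapamycin the authors deposited mean levels as a signal, moderated log2 changes, and p-values with their adjusted form, whose scale, test and adjustment are not stated. The submitters' processing notes name edgeR 3.0.8 and HTSeq 0.5.3p9 beside TopHat 1.3.1 and CASAVA 1.8.2. No source used here gives the build, the strand setting or the normalization.

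Since the values are normalized counts, the test was limma-trend (limma 3.58.1, R 4.3.3) on log2(value + 1), with 1 mean per strain and time, a spread shared by 17 libraries, and Benjamini-Hochberg adjustment at 0.05 over 14422 genes. Genes under a mean of 1 on the per-million scale were left out. The log2 scale understates changes of low genes. Ratios of summed reads have exact 95% intervals. Alternatives were pseudocounts of 0.5 and 5, no filter, per-million and quantile scaling, edgeR 4.0.16 quasi-likelihood and DESeq2 1.42.0 on the recovered reads, fewer groups in the fit, a replicate block, and leaving out each library. The script was tested on simulated data. Genes named are the members, the 3 named genes most like each, and list genes. Not analysed here were A31 library 25 at 48 h and the times of 31 and 43 h.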

Additional observations from a re-analysis of the deposited data

Results flagged for a closer look

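The 48 h change of CYCA1, ALK3, SMC2 and FTSZ2 differed between the strains by a test of the difference itself. From 0 to 48 h the DHC16 change was lower than the A31 change by a log2 difference of -2.76 for CYCA1, -4.13 for ALK3, -4.41 for SMC2 and -3.96 for FTSZ2. From 12 to 48 h the difference was -1.63 for CYCA1, -2.28 for ALK3 and -2.85 for SMC2. A31 libraries 19 and 22 differ at 48 h, and their part in the second set of differences is given with each library left out in the results above.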

How the results depend on the processing

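Of 688 recomputed member values, 645 kept their direction and their side of the threshold, 35 were no longer called, 8 became called and 0 reversed. All 4 members remained called in A31 and DHC16 at 12 h and in A31 at 48 h against 0 h under every alternative. The count of members with a different change from 12 to 48 h was 0 with per-million scaling and 1 to 4 over the leave-outs (3 as reported). From 0 to 12 h it was 1 with quantile scaling and 1 with only the groups compared in the fit (0 as reported). For A31 at 48 h against 12 h it was 0 with only its groups in the fit and 2 to 4 over the leave-outs. For the strains at 12 h it was 3 with only those groups in the fit. Counts over all genes moved more. A31 at 48 h against 0 h called 3892 genes, 297 with only its groups in the fit and 953 to 7205 over the leave-outs, and A31 at 48 h against 12 h called 3884, 0 with only its groups and 6519 with per-million scaling. The strain difference called 36 genes from 0 to 12 h (335 with per-million scaling, 179 with DESeq2, 502 with only its groups), 2584 from 0 to 48 h (9580 with per-million scaling, 1671 with only its groups) and 2805 from 12 to 48 h (6276 with per-million scaling). At 12 h the strains differed at 498 genes (1055 with per-million scaling, 1008 with DESeq2, 2488 with only those groups), and at 48 h at 4545 (1631 with only those groups).

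The strains share library numbers, and the labels do not say what a number marks. The correlations of same-numbered libraries' deviations ran from -0.08 to 0.22, with 4 of 8 over 0.1, so the numbers were not taken as pairs. With a replicate block the members called were 0 from 0 to 12 h, 4 from 0 to 48 h, 2 from 12 to 48 h, 0 at 12 h and 3 at 48 h, and 11, 2123, 2393, 445 and 3770 genes were called in all. The calls not made with the block were CYCA1 from 12 to 48 h (-1.74, adjusted p = 0.054) and FTSZ2 at 48 h (-1.91, adjusted p = 0.07). At 0 h the members had 3 to 40 reads per group, which limits every change measured from 0 h. A31 has 2 libraries at 48 h, and without either the remaining one is assumed to vary like the other groups. The cause of the changes between settings was not tested.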

Other observations

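The members' 0 h levels in A31 stand differently in the count table and in the authors' rapamycin sheets, whose scales differ. The log2 ratio of the sheet's 0 h level to the count table's A31 0 h mean was taken with 1 added to each. That added 1 pulls the ratio of genes near 0 toward smaller sizes, so the values and ranks of such genes depend on it. Over 2638 genes in both, the median of this ratio was -4.0. For the members it was 2.76 (CYCA1), 3.06 (ALK3), 3.96 (SMC2) and 4.41 (FTSZ2), which are ranks 57, 40, 20 and 14 from the top. Relative to the other genes of the sheets, the members were thus far higher at 0 h in the sheets than in the count table. The cause was not tested.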
